A study of Mus musculus with 2 samples.

Results

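The 34 genes described here are genes of enteric and autonomic neurons, read in the esophagus of mouse embryos. They were chosen by name: every probe set of the array whose platform annotation gives a single gene symbol, that of a listed gene, was taken. All 34 were found, on 63 probe sets, among 18193 named genes on the array. A probe set is a group of short probes against 1 transcript, and its signal, computed with Affymetrix's MAS5 method on a linear scale, is the only measurement in these data. The study has 2 samples, both total RNA from whole fetal esophagus at E18.5, shortly before birth. The first is labelled Myf5-/-:MyoD-/- and called the null-labelled array here, with a background given as BALB/c, and lacks by its label the muscle regulators Myf5 and Myod1. The second is wild type, also BALB/c. No other allele, treatment or sex is named for either, and the sources used here do not say how many embryos made up an RNA sample. With 1 array of each genotype there was no replicate, so values and ratios are described and no difference was tested.

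The neurons of the esophagus belong to the enteric nervous system, whose cells arise from vagal neural crest and settle as ganglia between the muscle layers. They relax or contract the gut wall through acetylcholine, nitric oxide and peptides such as vasoactive intestinal peptide. The esophagus also receives axons whose cell bodies lie elsewhere, from vagal motor and sensory neurons and from sympathetic ganglia. In the mouse, striated fibers take the place of smooth muscle in its outer muscle around birth, and vagal motor axons innervate the striated fibers.

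Among the neuron genes the axon cytoskeleton group read lower in the null-labelled esophagus when each gene was read at its brightest probe set. The ratios of every other group with over 2 measured genes then lay on both sides of 0. At these probe sets all 9 axon cytoskeleton and growth genes had a lower signal, with a median log2 ratio of -0.78. The direction was less uniform beyond them, as Stmn2 and Stmn3 read higher at their second probe sets (0.28 and 0.83). Taking each gene at its probe-set median left 7 of the 9 lower. Dropping probe sets that may hybridize to other transcripts left 8. The 28 of 34 genes with a signal of at least 489, the low-signal limit, on 1 array or both are called measured. Of these, 4 read lower by 2-fold or more and 0 read higher by that much. Of all 13315 measured genes, 5.36% were lower and 6.01% higher by 2-fold or more. The 4 were Dcx, Nefl, Chgb and Snap25. Signal reached the limit on both arrays for 24 of the 28; Phox2a, Scg3, Tubb3 and Sncg reached it on the wild-type array alone and so could only read lower. Below a log2 ratio of 0 lay 20 of the 28, against 43.4% of all measured genes, and the median was -0.25, against 0.086 over all measured genes. In whole tissue, fewer neurons and less RNA per neuron cannot be told apart.

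Features of the whole arrays bear on genes as dim as these. The limit is the median signal of both arrays, and 55.4% of probe sets reached it on the null-labelled array, against 44.6% on the wild-type array. Bacterial controls added at hybridization read higher on the null-labelled array at all 18 probe sets, with log2 ratios of 1.57 to 2.11, although both arrays were scaled to a trimmed mean of 1500. The signal of the beta-actin control was 14.2 times as strong at its 3' end as at its 5' end on the null-labelled array and 12.6 times on the wild-type array, and that of Gapdh 6.96 times on the null-labelled array and 10.5 times on the wild-type array. The part of RNA quality and of what raised these controls in the ratios was not tested. Myf5 read 496 on the null-labelled array, against 4072 on the wild-type array, while Myod1 read 1698 (null-labelled) and 2001 (wild type) at its brighter probe set, so Myod1 signal does not separate the labels, and the sources used here do not say whether its probes lie in the deleted part. All 12 striated muscle fiber genes read at least 2-fold lower on the null-labelled array, with a median log2 ratio of -5.54, and all 8 squamous epithelium genes of the esophagus were measured on both arrays.

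**Figure D1:**
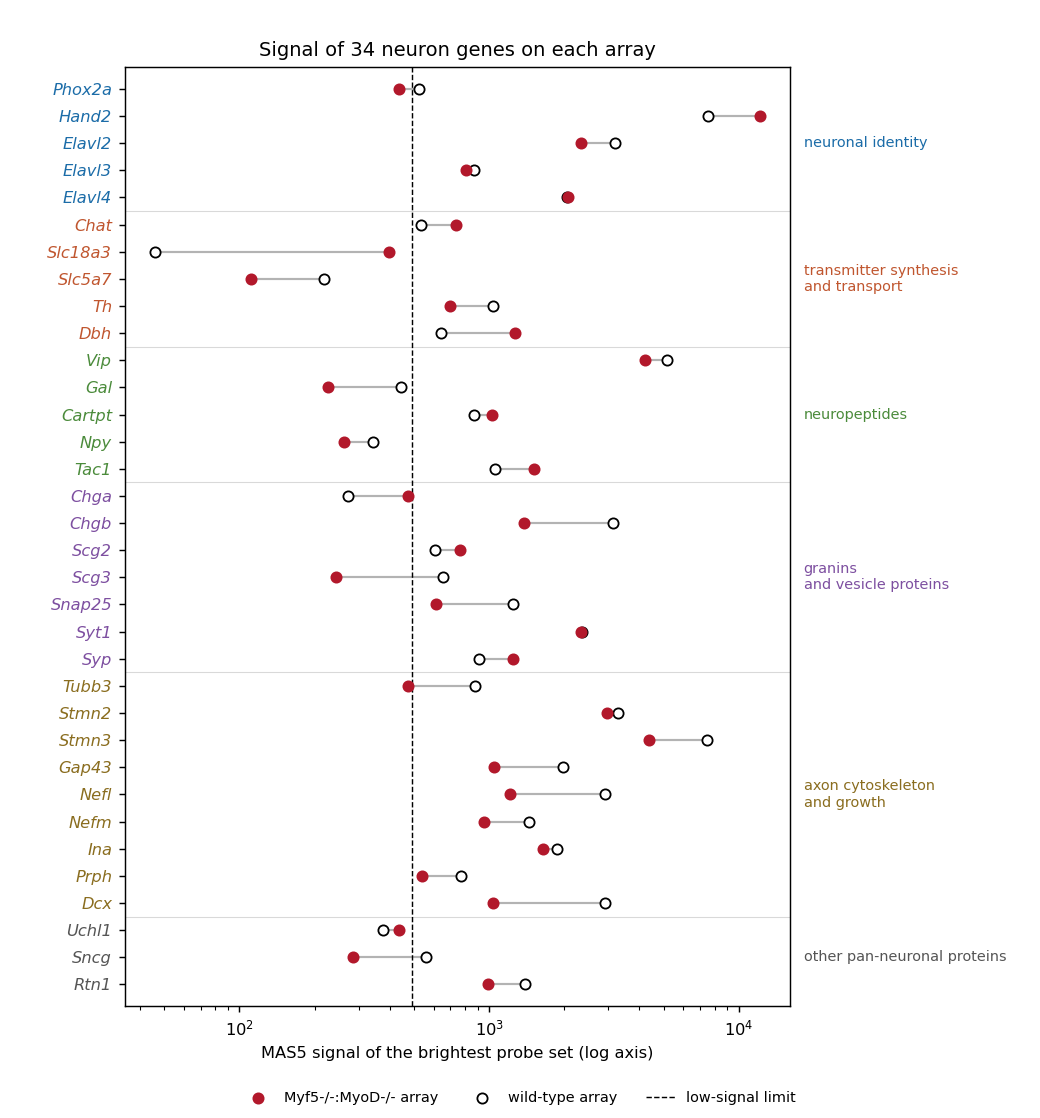
MAS5 signal on a log axis at the brightest probe set of each of the 34 genes, grouped by role, with filled points for the Myf5-/-:MyoD-/- array and open points for the wild-type array (1 array each, so no error bars). The dashed line is the low-signal limit of 489. In the axon cytoskeleton and growth group all 9 filled points lie left of the open ones, and 6 genes, among them Slc18a3 and Npy, lie left of the line on both arrays.

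None of the 5 genes of neuronal identity was 2-fold apart at its brightest probe set. Phox2a, a homeodomain factor of autonomic neurons, read 435 on the null-labelled array and 523 on the wild-type array, next to the limit. Hand2, a basic helix-loop-helix factor needed for enteric neuron differentiation that gut mesenchyme also makes, read 12186 on the null-labelled array, against 7501 on the wild-type array, 1.62-fold higher.

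The neuronal Elav genes encode RNA-binding proteins (the Hu proteins) by which enteric neurons are commonly stained. Elavl4, which encodes HuD, read 2068 on the null-labelled array and 2056 on the wild-type array at its brightest probe set, a log2 ratio of 0.0086, and its other probe sets had ratios of 0.48 and 0.72. Elavl3 read 811 (null-labelled) and 866 (wild type), a ratio of -0.094. Neither gene was 2-fold apart at any measured probe set. Elavl2 did not give a single answer: its brightest probe set read 2337 on the null-labelled array and 3182 on the wild-type array, a log2 ratio of -0.44, but the other measured ones had -1.59, -0.35 and 0.96.

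Genes for making and loading transmitters were dim and mixed. Chat, the enzyme that makes acetylcholine, read 735 on the null-labelled array, against 533 on the wild-type array, 1.38-fold higher. The vesicular acetylcholine transporter gene Slc18a3, which lies within the Chat gene, read 396 (null-labelled) and 45.9 (wild type), and the choline transporter gene Slc5a7 read 111 (null-labelled) and 219 (wild type). Both are below the limit on each array, so no ratio is given for them. The cholinergic genes thus left a single measured member, itself close to the limit.

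The noradrenergic enzymes went opposite ways. Th, which makes the catecholamine precursor L-DOPA, read 694 on the null-labelled array and 1036 on the wild-type array, 1.49-fold lower. Dbh, which turns dopamine into noradrenaline, read 1268 on the null-labelled array, against 640 on the wild-type array, 1.98-fold higher and just short of 2-fold. Its probe sets disagree, however. A second had a log2 ratio of 0.65, and the other one read 235 (null-labelled) and 1364 (wild type), a bound of -1.48.

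Of the 5 neuropeptide genes, 3 were measured. Vip, whose product relaxes gut muscle, read 4193 on the null-labelled array and 5174 on the wild-type array, a log2 ratio of -0.30. Tac1, the precursor of the excitatory peptide substance P, read 1508 on the null-labelled array, against 1052 on the wild-type array, 1.43-fold higher. Cartpt, the precursor of CART peptide, read 1026 (null-labelled) and 869 (wild type), 1.18-fold higher, though slightly lower with quantile normalization or loess. None of these 3 differed 2-fold. Gal, for galanin, read 226 (null-labelled) and 443 (wild type), and Npy, for neuropeptide Y, 262 (null-labelled) and 344 (wild type), below the limit on both arrays.

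Secretory granule and synaptic vesicle genes included a pair of those past 2-fold. Chgb, which encodes the granule protein chromogranin B, read 1378 on the null-labelled array, against 3149 on the wild-type array, 2.28-fold lower, at its single probe set. Snap25, a plasma membrane protein of the vesicle fusion complex, read 612 on the null-labelled array, against 1245 on the wild-type array, 2.03-fold lower. The second Snap25 probe set read 583 (null-labelled) and 436 (wild type), a bound of 0.25 in the other direction. Snap25 was the gene nearest the threshold on the inside, as Dbh at 1.98-fold higher and Gap43 at 1.90-fold lower were nearest on the outside.

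The remaining vesicle genes stayed within 2-fold. Syt1, the calcium sensor of transmitter release, read 2328 on the null-labelled array and 2361 on the wild-type array. Syp, for the vesicle membrane protein synaptophysin, read 1252 (null-labelled) and 911 (wild type), 1.37-fold higher, with a second probe set at a bound of -0.28. The granins were not alike: Scg2 read 762 (null-labelled) and 607 (wild type), 1.26-fold higher, though lower with quantile normalization or loess. Scg3 read 243 on the null-labelled array, against 651 on the wild-type array, at least 1.33-fold lower, and Chga read 472 (null-labelled) and 272 (wild type), below the limit on both. The 6 measured genes of this group had a median log2 ratio of -0.22.

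In promoter sequence, a motif was shared by granin, transmitter and peptide genes whose ratios differed in size. The palindrome TGACGTCA, the cyclic AMP response element, was searched on both strands in 300-base windows around the start site from RefSeq (GRCm38.p6), which hold an entry for 29 of the 34 genes. It stood in the windows of 4 of these genes, Chgb, Th, Scg2 and Cartpt, and in 1.79% of all 32851 windows. Here and below, a gene counted if any of its windows held the motif. The shares are per window, and a gene may have several, so the genes and the shares are unlike measures. The log2 ratios of these 4 genes were -1.19, -0.58, 0.33 and 0.24, and those of Scg2 and Cartpt turned to -0.10 and -0.028 with quantile normalization and to -0.18 and -0.081 with loess on signal. The 250 bases before the Chgb start are shown because Chgb is the only 1 of the 4 past 2-fold. For Th, Scg2 and Cartpt, 60 bases around the motif are shown, each 5' to 3' on the strand of the gene, with the motif in capitals. A match describes the letters only and says nothing of binding.
Chgb, chr2:132781392-132781641, plus strand: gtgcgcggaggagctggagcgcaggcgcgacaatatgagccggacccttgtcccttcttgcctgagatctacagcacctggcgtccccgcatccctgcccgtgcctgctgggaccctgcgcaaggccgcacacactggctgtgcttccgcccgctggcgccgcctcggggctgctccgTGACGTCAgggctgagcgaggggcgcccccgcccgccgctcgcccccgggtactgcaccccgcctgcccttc
Th, chr7:142900007-142900066, minus strand: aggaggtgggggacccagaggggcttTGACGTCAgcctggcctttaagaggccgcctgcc
Scg2, chr1:79440061-79440120, minus strand: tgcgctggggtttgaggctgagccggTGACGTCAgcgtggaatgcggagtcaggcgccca
Cartpt, chr13:99900762-99900821, minus strand: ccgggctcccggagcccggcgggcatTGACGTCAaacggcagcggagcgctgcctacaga

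The axon cytoskeleton and growth group was the one, of those with over 2 measured genes, with a common direction at the brightest probe sets. Dcx, the microtubule-binding protein doublecortin of young neurons, read 1035 on the null-labelled array, against 2922 on the wild-type array, 2.82-fold lower, the largest ratio of the 34 genes at their brightest probe sets. Its other 3 probe sets lay below the limit on both arrays. Nefl, the light neurofilament chain, read 1207 on the null-labelled array, against 2918 on the wild-type array, 2.42-fold lower. Its second probe set read 109 (null-labelled) and 1850 (wild type), a bound of -1.92, so both probe sets of Nefl passed 2-fold. Nefm, the medium chain and a neighbor of Nefl on chromosome 14, read 954 on the null-labelled array and 1445 on the wild-type array, 1.51-fold lower.

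The promoter of Dcx is shown as that of a gene past 2-fold. The 250 bases before the start shown do not contain the letters of the cyclic AMP response element. They hold a TATAAA, in capitals, that begins 98 bases before that start. Dcx also has a window around another start, in which a TATAAA begins at position -193. TATAAA, searched on both strands, stood in 13.6% of all windows and in those of 6 of the 29 genes, Dcx, Prph, Vip, Chga, Elavl3 and Slc5a7. TTCAGCACC, part of the element bound by the repressor of neuronal genes REST, was found in 0.371% of all windows and for 1 gene, Scg2. Nefl, Nefm, Snap25, Stmn2 and Gap43 are named without a sequence.
Dcx, chrX:143933220-143933469, minus strand: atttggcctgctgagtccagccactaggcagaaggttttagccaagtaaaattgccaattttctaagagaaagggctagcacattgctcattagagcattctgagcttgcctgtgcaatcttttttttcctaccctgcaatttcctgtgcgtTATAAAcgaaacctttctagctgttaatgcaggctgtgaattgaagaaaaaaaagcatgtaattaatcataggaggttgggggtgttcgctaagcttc

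The other intermediate filament genes read lower by less. Prph, peripherin of peripheral neurons, read 541 on the null-labelled array and 768 on the wild-type array at its brightest probe set, 1.42-fold lower, with bounds of -1.15 and -0.76 at a pair of others. Ina, alpha-internexin, read 1646 (null-labelled) and 1862 (wild type), a ratio of -0.18, and -0.21 at its second probe set. The bounds of Nefl and Prph come from probe sets that reached the limit on the wild-type array alone and so could only lie below 0. The remaining Prph probe set, below the limit on both arrays, read 399 (null-labelled) and 287 (wild type).

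Genes of microtubules and growth cones were less uniform. Gap43, a growth cone membrane protein, read 1045 on the null-labelled array, against 1986 on the wild-type array, 1.90-fold lower. Tubb3, the neuronal beta-tubulin, read 473 on the null-labelled array, against 876 on the wild-type array, at least 1.79-fold lower. Both genes rest on a single probe set. The stathmin genes, whose products bind tubulin dimers, had probe sets that disagreed: Stmn2 read 2970 (null-labelled) and 3272 (wild type) at its brightest, a ratio of -0.14, and 0.28 at its second. Stmn3 read 4356 on the null-labelled array, against 7489 on the wild-type array, 1.72-fold lower, at a probe set of the kind that may hybridize to other transcripts (its ID ends in _x_at), and 980 (null-labelled) and 550 (wild type) at its second, a log2 ratio of 0.83. When the probe sets of a gene were summarised by their median, 7 of the 9 genes lay below 0, and without probe sets of that kind 8 of 9, with medians of -0.76 and -0.60. Under the other scalings of the arrays (centring, quantile and loess) all 9 lay below 0, with medians of -0.87, -0.82 and -0.97.

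Of the general neuronal genes, Rtn1, a reticulon of the endoplasmic reticulum, read 985 on the null-labelled array and 1390 on the wild-type array, 1.41-fold lower. Sncg, for gamma-synuclein, read 286 (null-labelled) and 558 (wild type), at least 1.14-fold lower. Uchl1, the ubiquitin hydrolase known as PGP9.5 and a common stain for enteric nerves, read 436 (null-labelled) and 377 (wild type), below the limit on both arrays.

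**Figure D2:**
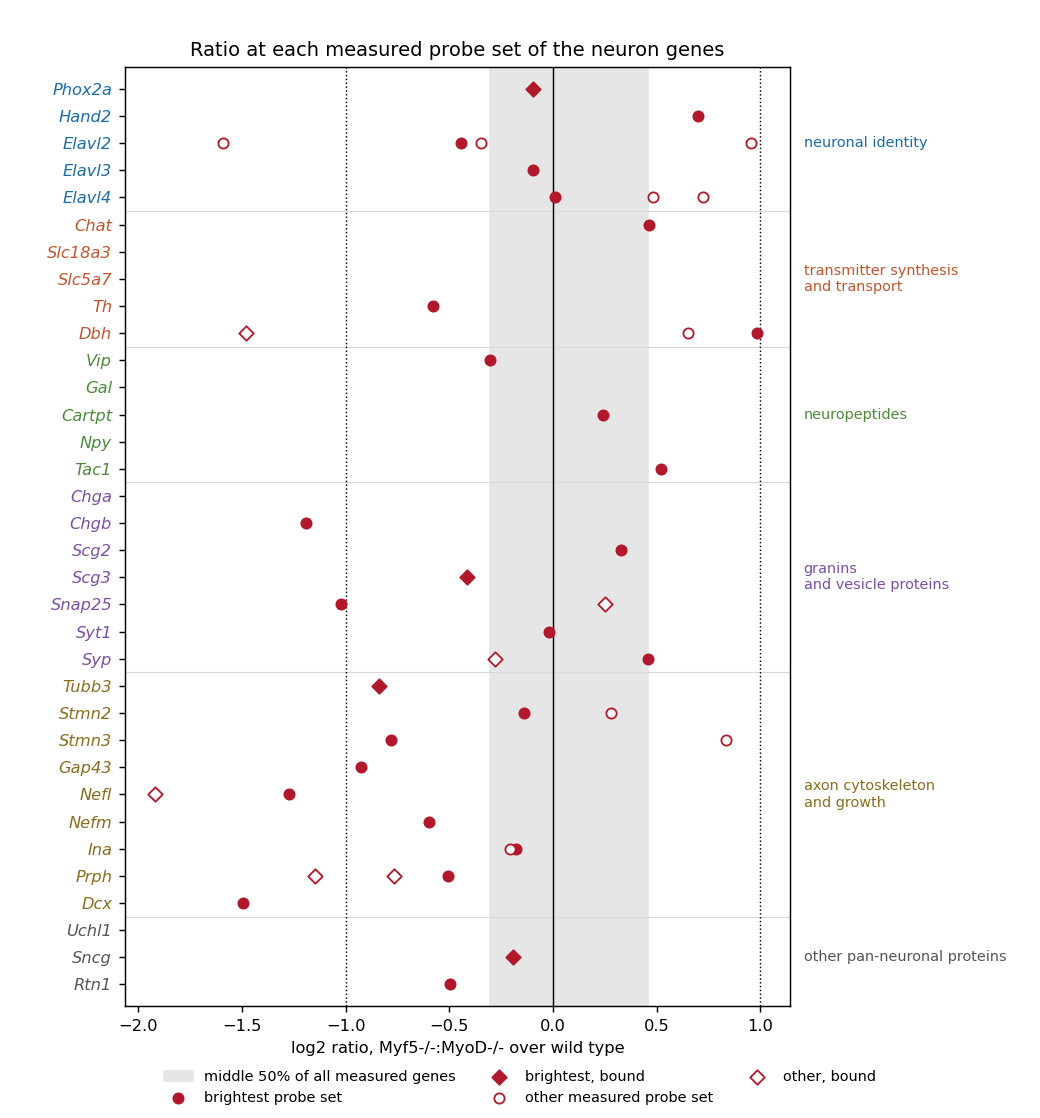
The log2 ratio of the Myf5-/-:MyoD-/- over the wild-type array at each of the 43 measured probe sets, by gene; diamonds are bounds (signal below the limit on 1 array), filled symbols the brightest probe set of a gene, dotted lines 2-fold, and the grey band the middle 50% of all measured genes at their brightest probe set. In the axon cytoskeleton and growth group only Stmn2 and Stmn3 have a symbol right of 0, and the symbols of Elavl2, Dbh and Stmn3 spread on either side of it.

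How far probe sets of a gene disagree is the only error these data give, and it leaves out variation between animals. Of the 63 probe sets 43 were measured, and 8 of those were lower by 2-fold or more and 0 higher. Of all 22203 measured probe sets with a gene name, bounds included, 4.94% were lower and 5.94% higher. Among the 8 are bounds at a probe set each of Dbh, Nefl and Prph. These reached the limit on the wild-type array alone and so could only read lower. Within a gene, the log2 ratios of its probe sets spread with an SD of 0.82 in the 10 neuron genes that had several measured ones (25 in all), against 0.56 over 14307 probe sets of 5455 genes of the whole array. In 6 of these 10 genes (Dbh, Elavl2, Snap25, Stmn2, Stmn3 and Syp) the probe sets lay on both sides of 0. For Dbh, Snap25 and Syp the probe set opposed to the brightest reached the limit on 1 array alone, which fixed its sign. The probe sets were on the same side of 0 in Ina, Nefl, Prph and Elavl4, but for Nefl and Prph the limit fixed the sign of all but the brightest. Of the 28 measured genes, 18 rest on a single measured probe set, and 17 stayed under 4 times the limit on both arrays.

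Other genes of the same kinds, in lists chosen with earlier results of these data known, did not share a direction. Of 17 measured further genes of enteric and autonomic neurons, 4 read at least 2-fold lower and 1 higher, with a median log2 ratio of 0.0071. Over all measured genes, 5.36% were lower and 6.01% higher by that much. Isl1, a LIM homeodomain factor of autonomic, motor and sensory neurons that other tissues also make, read 383 on the null-labelled array, against 5542 on the wild-type array, at least 11.3-fold lower, with a second probe set at -1.22. Ddc, which makes dopamine and serotonin from their precursors, read 1047 on the null-labelled array, against 6673 on the wild-type array, 6.37-fold lower. These 2 ratios exceeded that of every one of the 34 genes. Ret, the receptor of the growth factor GDNF, read 537 on the null-labelled array, against 1276 on the wild-type array, 2.38-fold lower, while its second probe set had a ratio of -0.025. Hand1 read 1126 (null-labelled) and 179 (wild type), at least 2.30-fold higher. Nos1, the neuronal nitric oxide synthase of inhibitory enteric neurons and chosen here after its value was seen, read 4078 on the null-labelled array and 3242 on the wild-type array.

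Of 19 measured further synaptic vesicle and release genes, 2 read at least 2-fold lower and 1 higher (median log2 ratio 0.018). The shares over all measured genes were 5.36% lower and 6.01% higher. Snap91, a clathrin adaptor of synaptic vesicles, read 988 on the null-labelled array, against 4468 on the wild-type array, 4.52-fold lower. Syn1, which tethers vesicles, read 1697 on the null-labelled array, against 711 on the wild-type array, 2.39-fold higher. The brightest probe set of Syt11 was 2.20-fold lower, while its others ranged on the log2 scale between -0.64 and 0.60.

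Of 23 measured further neuronal cytoskeleton genes, 15 lay below 0, with 3 lower and 2 higher by 2-fold or more (median -0.19). Among all measured genes 43.4% lay below 0, with 5.36% lower and 6.01% higher by 2-fold or more. Crmp1, a growth cone phosphoprotein, read 426 on the null-labelled array, against 1387 on the wild-type array, at least 2.84-fold lower. Stmn4, another stathmin, read 2222 on the null-labelled array, against 4975 on the wild-type array, 2.24-fold lower. The tubulin gene Tubb2a read 8690 (null-labelled) and 17561 (wild type), 2.02-fold lower, with a ratio of 0.24 at its second probe set, and Dpysl5, of the same family as Crmp1, read 996 (null-labelled) and 183 (wild type), at least 2.04-fold higher. This list therefore had members past 2-fold in both directions, unlike the 9 genes above. Its 2 higher genes, Dpysl5 and Tubb4a (979 null-labelled, 476 wild type), reached the limit on the null-labelled array alone. They could only read higher, as Crmp1, which reached it on the wild-type array alone, could only read lower. All 9 genes above reached the limit on the wild-type array. The difference between the lists was not tested.

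Markers of other cell types of the esophagus were read beside the neuron genes. Over all measured genes, 5.36% were lower and 6.01% higher by 2-fold or more. Of 13 measured genes of enteric glia and Schwann cells, 1 was at least 2-fold lower and 0 higher (median -0.12). That gene was Mal at 29959 (null-labelled) and 78274 (wild type), which epithelium also makes. Sox10, the glial transcription factor, read 1012 on the null-labelled array and 1236 on the wild-type array, a ratio of -0.29, with 1.06 at its second probe set, and was named after its values were seen. The summed signal of this list was 64417 on the null-labelled array and 123340 on the wild-type array, and without Mal 34458 on the null-labelled array and 45066 on the wild-type array. Of 8 smooth muscle genes, 2 (Mylk and Lmod1) were at least 2-fold higher and 1 lower. The lower gene was Des at 1094 (null-labelled) and 3066 (wild type), with a log2 ratio of 0.83 at its second probe set. The summed signal of the 8 genes was 626906 on the null-labelled array and 305216 on the wild-type array. Without Mylk and Acta2 the other 6 summed to 57447 on the null-labelled array and 58574 on the wild-type array. Of 8 squamous epithelium genes, 2 (Krt14 and Tgm1) were at least 2-fold lower, 0 were higher and 5 lay below 0, with a median of -0.21 beside -0.25 for the neuron genes. The 12 striated fiber genes summed to 8835 (null-labelled) and 387737 (wild type). The part of these shifts in the neuron gene ratios was not tested.

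**Figure D3:**
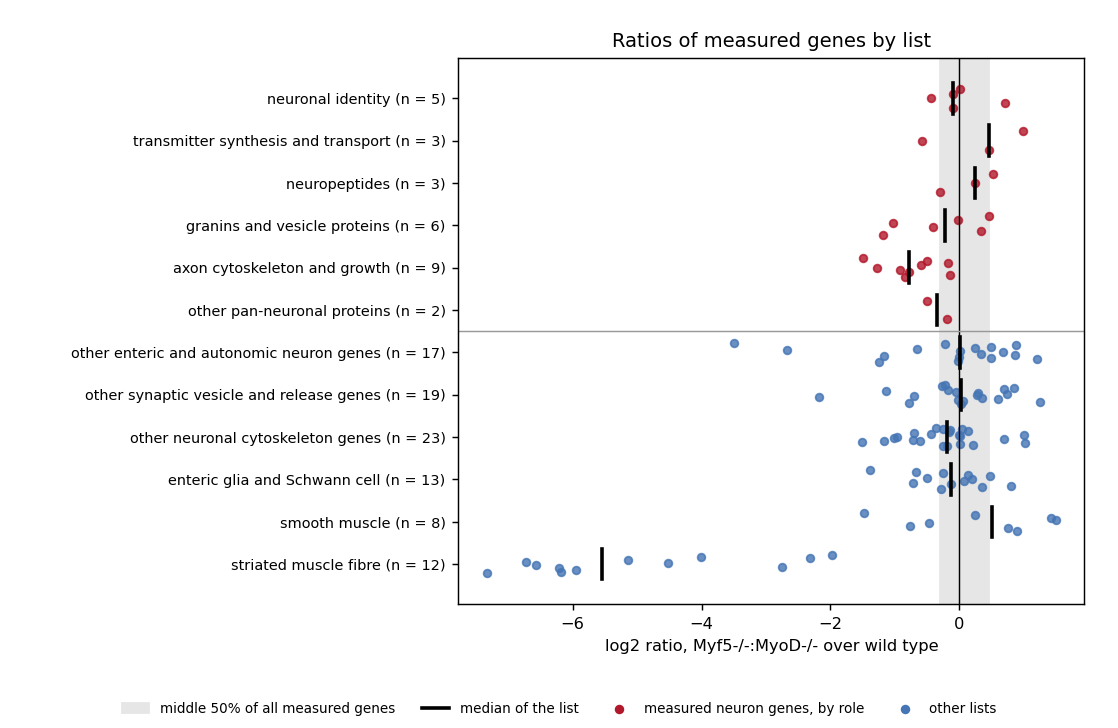
The log2 ratio of the Myf5-/-:MyoD-/- over the wild-type array for measured genes at their brightest probe set, 1 point a gene, with the 28 measured neuron genes by role in red and other lists in blue; black bars are medians and the grey band is the middle 50% of all measured genes. The axon cytoskeleton and growth points all lie left of 0 with a median of -0.78, and the striated muscle fiber points have a median of -5.54.

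The way the arrays were scaled and the limit set moved the size of the shift of the neuron genes. Their median log2 ratio lay between -0.38 and -0.18 under the setting used here and 8 alternatives, and that of all measured genes between -0.033 and 0.17. Chgb, Dcx and Nefl were at least 2-fold lower under all of these 9 settings, and Snap25 under 7 of the 8 that measured it. A higher gene appeared with a lower limit or none, Slc18a3, whose signals of 396 (null-labelled) and 45.9 (wild type) then counted as measured. Of all measured genes, 16.6% were higher with the lower limit and 19.5% with none.

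**Figure D4:**
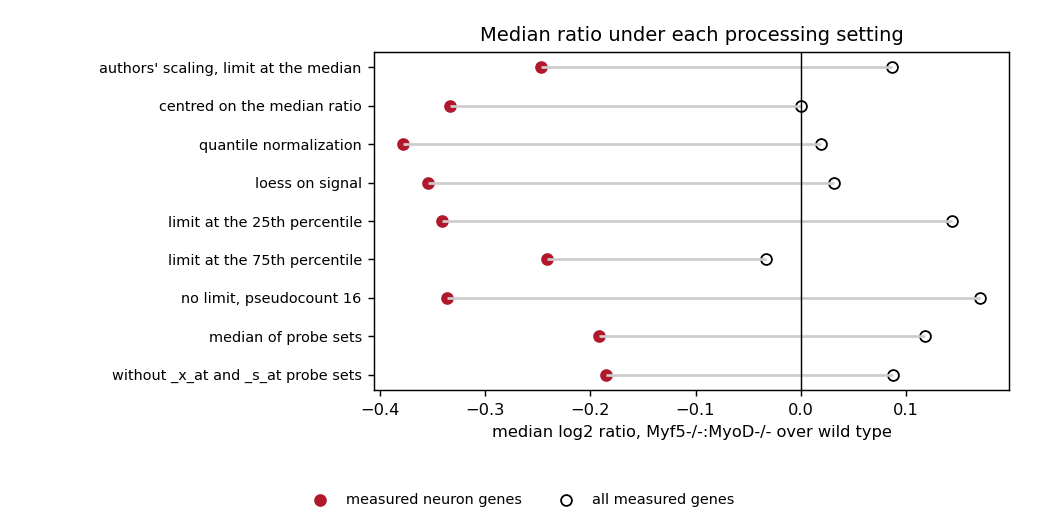
Median log2 ratio of the Myf5-/-:MyoD-/- over the wild-type array under each of 9 processing settings, with filled points for the measured neuron genes and open points for all measured genes. The filled points lie between -0.38 and -0.18, left of the open point in every setting shown.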

How the data were processed

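Total RNA from fetal esophagus was labelled and hybridized to expression arrays, per the labels' protocols. The deposited table gives each probe set a linear signal intensity that the authors computed with MAS5, a tool named in the submitters' processing notes. The sources used here name no version or settings, and no detection calls were used. With 2% of probe sets trimmed at either end, the mean intensity was 1500 on both arrays. Of 45101 probe sets, 64 array controls were left out of gene counts. Gene names came from the platform annotation; 34945 probe sets had 1 symbol, and the IDs of all 34 members matched RefSeq.

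Signals under the median of both arrays (489) were set to it, and the log2 ratio was taken as null-labelled over wild type. A gene took the probe set with the highest mean signal. With signal under the limit on both arrays it was not measured, and with signal under it on 1 array its ratio is a bound, written "at least" for a fold. With 1 array per genotype no test was possible, and the number of arrays limits the precision. Genes were counted at 2-fold. The members and lists were chosen with earlier results of these data known. Every member is named, and of the lists of neuron genes that are no members up to 4 with the largest ratios. The counting was tested on simulated data with 4-fold changes in genes well above the limit on both arrays. That test does not cover dim genes or changes near 2-fold. Python 3.11.15, numpy 2.4.6, pandas 2.3.3 and statsmodels 0.14.6 were used.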

Additional observations from a re-analysis of the deposited data

How the results depend on the processing

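The number of measured neuron genes at least 2-fold lower was 4, and 3 to 6 under the other 2-fold settings. Gap43 joined when ratios were centred on their median, with quantile normalization and with loess on signal, which also added Tubb3, and Scg3 joined with a limit at the 25th percentile or with none and a pseudocount of 16. Snap25 was lost when probe sets were summarised by their median, with a log2 ratio of -0.39. With the limit at the 75th percentile Snap25 was not measured. Requiring every measured probe set to pass, an alternative chosen after seeing the data, left 3. At 4-fold the number was 0. The number at least 2-fold higher was 0, and 1 of 34 with the limit at the 25th percentile or none. In those 2 settings 16.6% and 19.5% of all measured genes were higher. Of all 13315 measured genes, 714 were lower and 800 higher, and at 4-fold 142 and 21. A limit at the 25th percentile gave 1232 lower and 2742 higher of 16539. The 75th gave 383 and 148 of 7980, and no limit gave 1704 and 3548 of 18193. With loess, 360 were higher. The construction of these settings, which change how many genes are measured and how far dim signals count, sets the counts; the cause of the loess shift was not tested. Of the 28 measured members, 17 stayed below 0 and 5 above 0 under every setting that measured them, and 6 changed sign (Cartpt, Elavl4, Scg2, Stmn2, Stmn3 and Syt1). Of 210 single ratios under alternatives, 203 moved by less than the SD of 0.56 between probe sets. Many of these could hardly move by construction. Centring shifted every gene by the same 0.086, and a median of probe sets leaves the 18 genes with 1 measured probe set unchanged. The count is therefore no measure of stability. Low signal limits the dimmer members. No paired analysis was possible because each genotype has 1 array, and leaving out a replicate was not possible either.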

Other observations

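Genes of catecholamine neurons and their neighbors were grouped after their values were seen. At the brightest probe sets Dbh read higher and the others named in the next sentences lower. Ddc was 6.37-fold lower and Th 1.49-fold lower on the null-labelled array, and the vesicular monoamine transporter gene Slc18a2, at 482 on the null-labelled array and 775 on the wild-type array, was at least 1.58-fold lower. The noradrenaline transporter gene Slc6a2 read 1465 on the null-labelled array, against 5744 on the wild-type array, 3.92-fold lower, while its second probe set had a log2 ratio of 0.20. Dbh read 1.98-fold higher at its brightest probe set. The 6 genes listed for adrenal medulla and sympathetic neurons were Pnmt, Slc6a2, Chrna7, Cyb561, Eya1 and Nrtn, all measured. Eya1 is also a muscle progenitor factor, so the list is not particular to those cells. Of the 6, 1 was at least 2-fold lower and 0 higher, with a median of -0.39. The shares over all measured genes were 5.36% lower and 6.01% higher.

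Lists for neurons and neuroendocrine cells that other organs would bring were mostly dim. Of 9 sensory ganglion and motor neuron genes 4 were measured, of 9 lung or gut neuroendocrine genes 3, and of 10 central nervous system genes 3. In none of these lists was a gene 2-fold apart. Of the 10 measured genes 6, including all 3 neuroendocrine ones, reached the limit on the null-labelled array alone, which fixes their ratio as above 0. The other 4 were Mnx1 at 1576 on the null-labelled array and 1210 on the wild-type array, Isl2 at 1821 (null-labelled) and 1005 (wild type), Prrxl1 at 1142 (null-labelled) and 859 (wild type), and Neurod2 at 763 (null-labelled) and 641 (wild type). Kit and Ano1, both measured and both markers of the gut's pacemaker cells, read within 2-fold: Kit 1230 on the null-labelled array and 1127 on the wild-type array, and Ano1 863 (null-labelled) and 778 (wild type).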
